A study of Mus musculus with 2 samples.

Results

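This account covers 44 genes of the Wnt pathway in mouse keratinocytes: ligands, their receptors, the proteins that carry or block the signal, transcription factors and target genes. The genes were chosen as a named list, and a gene was found when the symbol printed beside a probe equalled its name. In all, 42 of the 44 had at least 1 probe under their symbol, among 17871 genes on the array, and each was read from its probe with the highest mean signal. Axin1 had no probe under its symbol. Fzd5 had none either, but a probe under the older symbol AI427138, a synonym of Fzd5, is given at the end of the receptors and enters no count.

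RNA came from epidermal keratinocytes of 3-month-old mice fed a diet low in calcium. The control mice had the genotype VDR fl/fl, in which both copies of the vitamin D receptor gene are floxed, and the group labelled knockout had the genotype VDR fl/fl with K14 driven Cre. Krt14 is expressed in basal epidermal cells and in the outer root sheath of hair follicles. Cre is therefore made in these cells, and a deletion made there is passed on to what they give rise to. Pigment cells, Langerhans cells and fibroblasts, in contrast, come from other lineages. Each group was 1 bead array that held RNA pooled from 3 mice, so there was no spread between replicates, and no difference below was tested.

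Wnt proteins are secreted, lipid-modified ligands that bind a Frizzled receptor together with Lrp5 or Lrp6. In the canonical branch this stops a complex of Apc, Axin and Gsk3 from marking β-catenin for destruction, and β-catenin then enters the nucleus and acts through the transcription factors Lef1, Tcf7, Tcf7l1 and Tcf7l2. In skin the pathway is known for starting hair follicles and for driving the growth phase of the hair cycle, and it is active in basal cells of the epidermis between follicles. The vitamin D receptor and β-catenin are known to interact in keratinocytes.

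Signals below are the deposited normalized intensities, on a linear scale that keeps the background of the array. Log2 differences are the array labelled knockout minus control, after the background was removed from the non-normalized intensities. Removing it widens the difference of dim genes, so the fold in the deposited signals is given as well where the choice matters. A gene was called detected on an array when its rank of intensity gave it a detection p under 0.05. A gene detected on 1 array only has a bound, written "at least N-fold", against the higher of its own value and the lowest detected value on the other array. The bound applies to values after background removal and can exceed the fold in the deposited signals.

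Detection and labels were checked first. Of 25697 probes, 46.7% passed the detection rule on the control array and 47.3% did so on the second. The keratinocyte markers Krt14, Krt5, Krt1, Krt10, Dsg3 and Trp63 were detected on both arrays, with differences from -0.28 to 0.16. Vdr itself showed no decrease where a knockout was labelled: its 3 probes had differences of 0.17, 0.23 and 0.77. The deleted exon is not named in the labels and the place of the probes within Vdr was not analysed here, so Vdr gave no check of the genotype. Every direction below rests on the label as given. Of the transcripts that mark sex, Xist was 2.22-fold higher and the Y-linked Ddx3y 7.87-fold lower on the array labelled knockout.

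Of the 42 Wnt genes with a probe, 28 were detected on both arrays, 4 on 1 array and 10 on neither. The 32 detected genes were more often lower than higher on the array labelled knockout. Their median log2 difference was -0.16, against 0.00 over all 9540 detected genes, and 21 of the 32 (65.6%) were below 0, against 50.2% of all detected genes. Nkd2, Fzd2 and Wif1 were at least 2-fold lower, which is 3 of 32 (9.38%) against 1.11% of all detected genes, and 0 were at least 2-fold higher, against 1.28%. At a fold of 1.3, chosen after the data were seen, 11 of 32 (34.4%) were lower against 10.1% of all detected genes, and 1 of 32 (3.12%) was higher against 11.2%.

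The lean was smaller in the deposited normalized signals, with the same detected genes. There 1 of 32 (3.12%), Nkd2, was at least 2-fold lower against 0.178% of all detected genes, and 0 were at least 2-fold higher against 0.283%. At 1.3-fold, 7 of 32 (21.9%) were lower against 3.08%, and 0 were higher against 3.86%. The list was named with earlier results of these data known, so these shares describe it and test nothing.

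**Figure D1:**
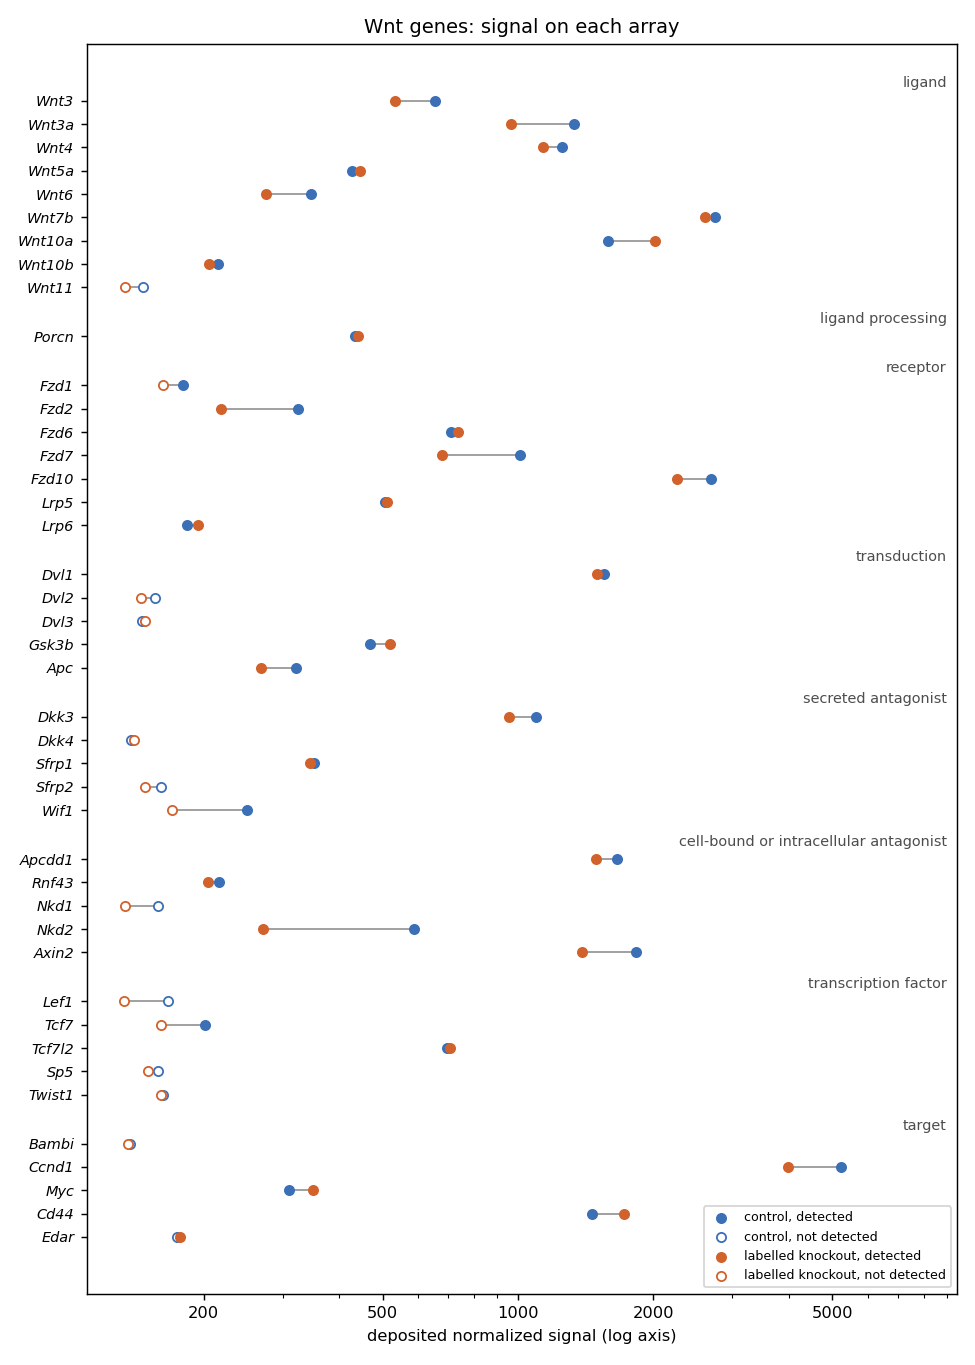
Deposited normalized signal (log axis) of each of the 42 Wnt genes for control (blue) and for the array labelled knockout (orange), grouped by role, with open circles where the probe was not detected. Each point is 1 array of RNA pooled from 3 mice, so there are no error bars, and signals of different genes come from different probes and are not comparable. The widest gap belongs to Nkd2, at 589 and 271.

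Among the 9 ligand genes, 8 were detected, all of them on both arrays, with differences from -0.63 to 0.39 and a median of -0.16. Wnt3a, a canonical ligand, had signals of 1331 for control and 964 for the group labelled knockout, a difference of -0.58 (1.50-fold lower, 1.38-fold in the deposited signals). Wnt6, a ligand of epithelia, had signals of 347 and 275, a difference of -0.63 (1.55-fold lower, 1.26-fold in the deposited signals). Wnt3, which in mouse skin is known for its action on the hair shaft, had signals of 655 and 532, a difference of -0.45 (1.36-fold lower, 1.23-fold in the deposited signals). These 3 were the ligands at least 1.3-fold lower, 3 of 8 (37.5%) against 10.1% of all detected genes. In the deposited signals Wnt3a alone of the 8 was, against 3.08% of all.

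Wnt10a was the only ligand at least 1.3-fold higher, 1 of 8 (12.5%) against 11.2% of all detected genes. In the deposited signals 0 ligands were, against 3.86% of all. Wnt10a encodes a ligand whose loss in humans disturbs teeth, hair and sweat glands. Its signals were 1590 and 2023, a difference of 0.39 (1.31-fold higher, 1.27-fold in the deposited signals). Wnt10a and Wnt6 lie next to each other in the mouse assembly GRCm38.p6, and their differences were of opposite sign. Wnt3a has Wnt9a as its neighbour, and the probe of Wnt9a, at 174 and 134, was detected on neither array.

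The remaining ligands lay close to 0. Wnt7b, the ligand whose probe had the highest signal, was at 2751 and 2609, a difference of -0.08. Wnt4 was at 1251 and 1138, with differences of -0.16 and -0.14 by its 2 probes. Wnt5a, a ligand best known for signalling that does not use β-catenin, was at 428 and 444 (0.09), and its dimmer probe gave -0.11, so its sign was not settled. Wnt10b was at 215 and 205 (-0.16), and Wnt11 was detected on neither array. Porcn, the enzyme that attaches the lipid without which Wnt proteins are not secreted, was at 435 and 442 (0.04). Its dimmer probe, detected on the control array only, was at 212 and 174, a measured difference of -0.70. The probes of Porcn thus had opposite signs.

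All 7 receptor and co-receptor genes with a probe under their symbol were detected, and 2 Frizzled genes stood below the rest. Fzd2 had signals of 325 and 219, a difference of -1.21 (2.32-fold lower), but only 1.49-fold in the deposited signals. Fzd7 had signals of 1010 and 677, a difference of -0.77 (1.71-fold lower), and again 1.49-fold in the deposited signals. Fzd2 and Fzd7 belong to the same subfamily of Frizzled receptors as Fzd1, which was at least 1.04-fold lower. Fzd2 and Fzd7 were the receptors at least 1.3-fold lower, 2 of 7 (28.6%) against 10.1% of all detected genes. Higher by that much were 0, against 11.2% of all.

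Fzd10, the receptor whose probe had the highest signal, was at 2690 and 2264, a difference of -0.26, and its 2 dimmer probes gave -0.06 and -0.17. Fzd6, known for orienting hairs in the plane of the skin, was at 711 and 736 (0.07). The co-receptors that canonical signalling needs were not lower by these probes: Lrp5 was at 506 and 512 (0.02) and Lrp6 at 183 and 195 (0.21). Lrp6 was near the limit of detection, and 1.06-fold higher in the deposited signals. Its non-normalized intensities were 166.2 and 169, where the lowest of a detected probe were 163.5 and 159.2. Fzd1 was detected on the control array only, at 180 and 163, and was at least 1.04-fold lower. The probe filed under AI427138, matched to Fzd5, was at 1004 and 1086 (0.14).

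Among the genes that carry the signal inside the cell, 3 of 5 with a probe were detected. Apc, the scaffold of the destruction complex, had signals of 321 and 268, a difference of -0.51 (1.42-fold lower, 1.20-fold in the deposited signals). Gsk3b, the kinase of the same complex, was at 469 and 521 (0.23), and Dvl1, which relays the signal from Frizzled, was at 1552 and 1503 (-0.05). Dvl2 and Dvl3 were detected on neither array.

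The genes listed here as Wnt antagonists were lower on the array labelled knockout in 7 of 7 detected cases, against 50.2% of all detected genes below 0. The 11 further antagonists of the wider set described after the promoters did not share this, with 5 of 11 (45.5%) below 0 and a median of 0.05. The count also depends on the roles, which were assigned with earlier results known. Apc (-0.51) and Gsk3b (0.23), of the complex that marks β-catenin for destruction, were counted with the genes that carry the signal. Of the 7, 3 encode secreted antagonists and 4 act in or on the receiving cell. Nkd2 had the largest difference among the 32 detected genes of the list. It encodes a protein that binds Dishevelled and is known as a feedback inhibitor, and its signals of 589 and 271 gave a difference of -1.92 (3.77-fold lower, 2.17-fold in the deposited signals). Only 14 of the 9540 detected genes, Nkd2 included, were as low or lower. For comparison, genes of similar signal had an SD of 0.46 in their log2 differences.

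Wif1, a secreted protein that binds Wnt ligands directly, had signals of 249.8 and 169.7 and was not detected on the array labelled knockout. It was at least 2.30-fold lower, but 1.47-fold in the deposited signals. Axin2, a scaffold of the destruction complex and the feedback target most often used as a readout of canonical signalling, had signals of 1827 and 1388, a difference of -0.45 (1.36-fold lower, 1.32-fold in the deposited signals). Among genes of similar signal the SD of the differences was 0.27, so Axin2 lay further from 0 than that spread, which is a spread between genes and not between animals.

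The other detected antagonists were lower by less. Dkk3, a member of the Dickkopf family whose part in Wnt signalling is debated, was at 1098 and 954 (-0.26), with -0.20 by its second detected probe. Apcdd1, a membrane protein known to inhibit Wnt signals in hair follicles, was at 1662 and 1490 (-0.18). Rnf43, which removes Frizzled receptors from the cell surface, was at 216 and 205 (-0.19), and Sfrp1, a secreted decoy of Frizzled, was at 353 and 346 (-0.05). Sfrp2, Dkk4 and Nkd1 were detected on neither array.

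**Figure D2:**
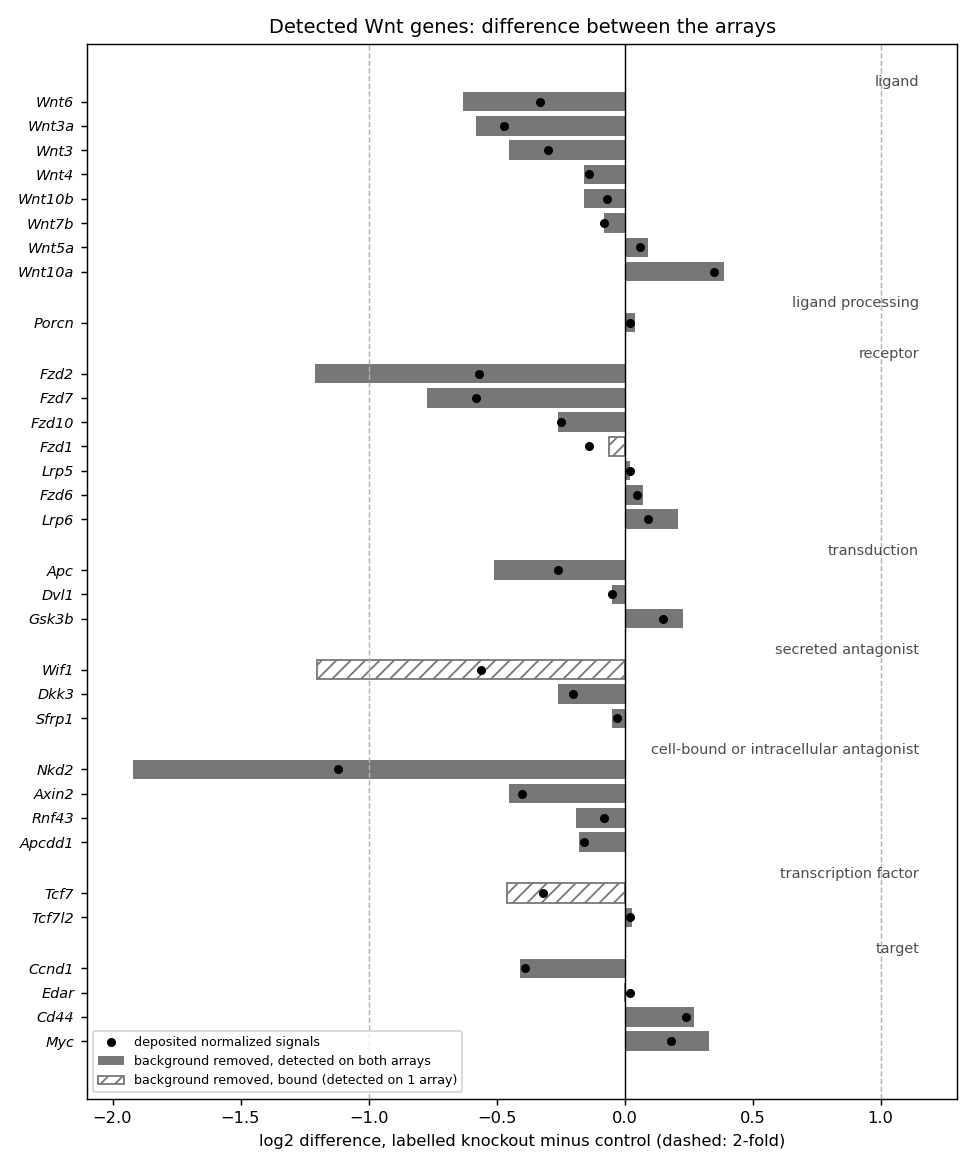
Log2 difference between the arrays for the 32 detected Wnt genes, grouped by role, with solid bars for genes detected on both arrays, hatched bars for bounds and black points for the same probe in the deposited normalized signals. Dashed lines mark 2-fold, which Nkd2, Fzd2 and Wif1 pass by the bars and Nkd2 alone passes by the points.

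The transcription factors were mostly too dim to compare. Tcf7, a partner of β-catenin, was detected on the control array only, with signals of 202 and 161, and was at least 1.38-fold lower after background removal, but 1.25-fold in the deposited signals. Tcf7l2, a related factor, was at 697 and 707 (0.03). Tcf7l1, which belongs to the wider set described after the promoters, was at 467.5 and 531.4 (0.29). Lef1, the partner of β-catenin in hair precursor cells, was detected on neither array, and its probes had signals from 133 to 167. Sp5 and Twist1 were also detected on neither.

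The genes listed under the role of target did not share a direction. The feedback genes Axin2 (-0.45) and Nkd2 (-1.92) were counted with the antagonists, so this role does not stand for all targets of the pathway. Ccnd1, the cyclin that moves cells out of the first gap phase, had signals of 5238 and 3998, a difference of -0.41 (1.33-fold lower), and its other probes gave -0.41 and -0.59. Cd44, a hyaluronan receptor of basal keratinocytes, had signals of 1463 and 1723, a difference of 0.27, and the 4 dimmer probes detected on both arrays gave 0.24 to 0.62. Both genes thus had the same sign on every probe detected on both arrays, and their signs were opposite.

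Myc, a growth regulator, was at 309 and 350 (0.33, 1.26-fold higher), and 1.13-fold higher in the deposited signals. Edar, a receptor of hair placodes, was detected on the array labelled knockout only, at 175 and 177, where its bound was 0. Bambi, a pseudoreceptor that damps BMP and TGF-β signals, was detected on neither array.

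**Figure D3:**
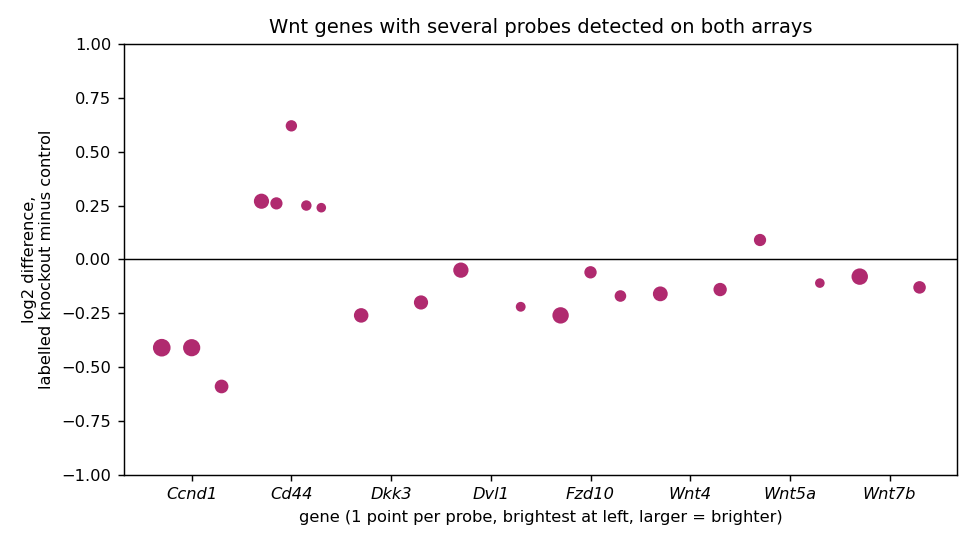
Log2 difference of each probe (1 point, larger where the control signal was higher) for the 8 Wnt genes with several probes detected on both arrays. In 7 of the 8 all probes have the same sign, and Wnt5a is the exception, at 0.09 and -0.11.

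Of these genes, 8 had several probes detected on both arrays, and in 7 of them all such probes had the same sign. The range between probes of a gene ran from 0.02 for Wnt4 to 0.38 for Cd44. Over the 2097 genes of the whole array with several such probes, the SD between probes of a gene was 0.24, which is a technical spread within the same RNA. The differences of Nkd2, Fzd2, Fzd7, Wif1, Wnt6, Wnt3a, Wnt3, Wnt10a, Axin2, Apc and Tcf7 rest on 1 detected probe each.

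**Figure D4:**
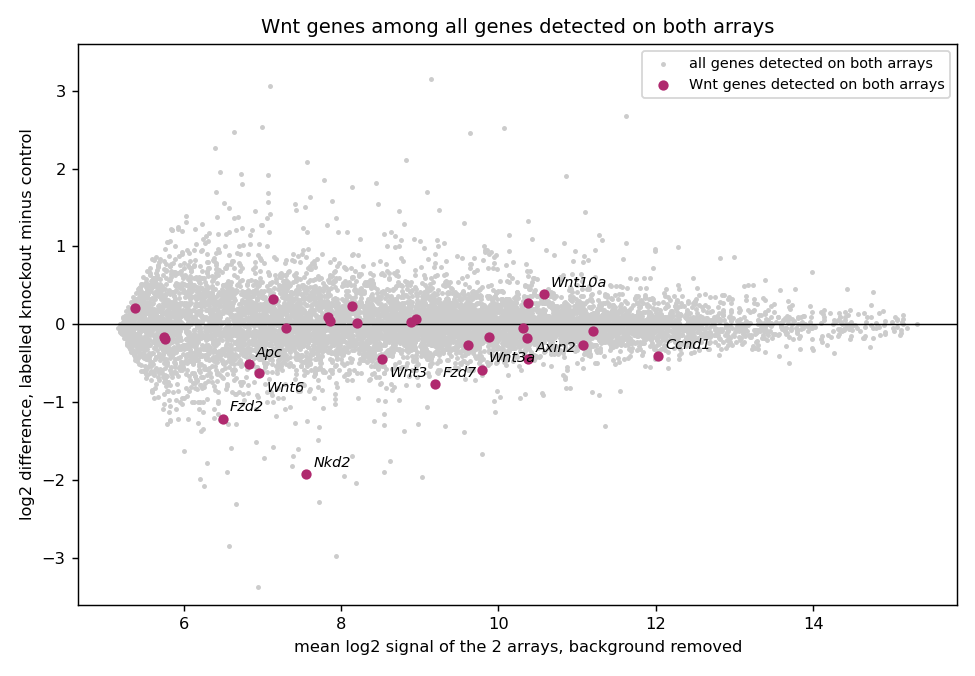
Log2 difference (vertical) against the mean log2 signal of the arrays after background removal (horizontal) for the 8393 genes detected on both arrays (grey) and the 28 Wnt genes among them (purple). The grey cloud narrows with signal, from an SD of 0.45 in the dimmest 1679 genes to 0.23 in the brightest 1679, and Nkd2 lies at its lower edge.

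Promoter sequence is shown for Nkd2, Fzd7 and Wif1, which were among the lowest genes, and for the canonical readout Axin2. Of the 42 genes, 26 had a promoter in the RefSeq table of GRCm38.p6, which runs from 250 bases before the start to 50 after it. On either strand, 7 of the 26 (26.9%) held a TCF/LEF match, spelled CTTTG and then AA, AT, TA or TT, against 18.9% of 27025 genes. A vitamin D response element of the direct repeat type with 3 spacer bases (DR3), which can overlap a TCF/LEF match, was found on either strand in 0 of the 26 genes, against 0.292% of the 27025. The 250 bases before the start are printed 5′ to 3′ on the strand of the gene, with TCF/LEF matches in capitals.
Nkd2 (chr13:73847632-73847881, minus strand): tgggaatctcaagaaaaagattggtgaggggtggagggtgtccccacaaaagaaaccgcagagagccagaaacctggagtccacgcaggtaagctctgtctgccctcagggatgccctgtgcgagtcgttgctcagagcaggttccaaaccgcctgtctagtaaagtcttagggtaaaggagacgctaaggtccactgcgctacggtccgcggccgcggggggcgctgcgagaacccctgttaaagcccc
Axin2 (chr11:108920099-108920348, plus strand): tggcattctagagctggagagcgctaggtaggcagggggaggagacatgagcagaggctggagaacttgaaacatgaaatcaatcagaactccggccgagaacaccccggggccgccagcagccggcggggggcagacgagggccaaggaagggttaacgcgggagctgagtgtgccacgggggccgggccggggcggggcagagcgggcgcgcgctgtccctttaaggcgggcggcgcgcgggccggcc
Fzd7 (chr1:59481897-59482146, plus strand): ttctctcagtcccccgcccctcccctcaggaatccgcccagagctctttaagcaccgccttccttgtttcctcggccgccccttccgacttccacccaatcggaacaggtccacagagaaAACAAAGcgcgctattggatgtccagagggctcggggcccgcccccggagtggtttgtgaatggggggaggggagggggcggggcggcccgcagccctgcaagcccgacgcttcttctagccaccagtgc
Wif1 (chr10:121033754-121034003, plus strand): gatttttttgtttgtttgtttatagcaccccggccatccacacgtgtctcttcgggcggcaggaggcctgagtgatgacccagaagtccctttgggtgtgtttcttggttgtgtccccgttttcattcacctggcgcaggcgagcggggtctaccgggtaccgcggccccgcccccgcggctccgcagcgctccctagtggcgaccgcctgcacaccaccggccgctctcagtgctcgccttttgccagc
Within these 250 bases only Fzd7 held a TCF/LEF match, AACAAAG, the reverse complement of the form that ends in TT, whose first base lies 130 bases before the start. Nkd2, Axin2 and Wif1 held none. A match is a run of letters and not evidence of binding, and the absence of one says nothing about sites elsewhere.

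A wider set of Wnt pathway genes, also listed with earlier results known, did not lean the same way. Of 86 such genes, 80 had a probe and 48 were detected, with a median difference of 0.04 and 20 of 48 (41.7%) below 0. At least 2-fold lower were 3 of 48 (6.25%, against 1.11% of all detected genes), and 0 were at least 2-fold higher. Of its 11 detected antagonists, 6 were above 0, among them Kremen1 (0.07), Sostdc1 (0.05), Tle4 (0.11) and Tle1 (0.16). At 1.3-fold, 6 (12.5%) were lower and 5 (10.4%) higher, which is near the 10.1% and 11.2% of all detected genes. The difference between the wider set and the genes described above was not tested.

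Shisa2, which holds Frizzled receptors back inside the cell, led the wider set with signals of 825 and 334, a difference of -2.03 (4.08-fold lower, 2.47-fold in the deposited signals). Lgr5, a receptor for R-spondins and a marker of follicle stem cells, was detected on the control array only, at 265 and 167, and was at least 2.60-fold lower. Wnt5b, also detected there only, was at 240.1 and 171.0 and at least 2.09-fold lower. In the deposited signals Lgr5 was 1.58-fold lower and Wnt5b 1.40-fold. Next among genes detected on both arrays was Tle3, a co-repressor that TCF factors recruit, at 304 and 223 (-0.98). That was 1.97-fold lower, but 1.36-fold in the deposited signals.

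Upward differences in the wider set were smaller. Frat2, which keeps Gsk3 from acting on β-catenin, was at 697 and 910 (0.52, 1.31-fold higher in the deposited signals). Gsk3a was at 213.5 and 248.0 (0.52), but only 1.16-fold higher in the deposited signals. The group of other transduction and transcription genes had a median of 0.17, with Ctnnb1, the gene of β-catenin itself, at 3641 and 4246 (0.22). Wls, the carrier that brings Wnt ligands to the cell surface, was at 1726 and 1374 (-0.38). Among other target genes, 7 of 9 were above 0, including Fosl1 (0.51) and Jun (0.36), and 2 of 9 (22.2%) were below 0, against 50.2% of all detected genes.

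Most detected markers of the hair follicle were also lower on the array labelled knockout. All 11 detected markers of hair shafts and inner root sheaths were below 0, against 50.2% of all detected genes. At least 2-fold lower were 6 of them (54.55%, against 1.11% of all detected genes). In the deposited signals 1 of the 11, Krt71, was 2-fold lower, against 0.178% of all. The deposited signal summed over 15 probes went from 8207 in the control to 6722, and Gata3 alone was at 4619 and 4362. Of 9 detected genes of the bulge and hair germ, 8 (88.9%) were below 0, against 50.2% of all detected genes. At least 2-fold lower were 4 (44.44%, against 1.11%), but in the deposited signals 1 of them, Tbx1, was, against 0.178%. Tbx1 had a difference of -1.95 (3.87-fold lower, 2.34-fold deposited) and Cd34 one of -1.63 (3.10-fold lower, 1.64-fold deposited). The summed signals were 26473 and 20642, and 4431 and 3419 without Krt15. All 5 detected melanocyte markers were below 0, against 50.2% of all detected genes, and 4 of the 5 were detected on 1 array only. The summed signals of 7 probes were 1818 and 1049, and each signal keeps the background, whose mean was 143.2 and 140.9. Dct alone was at 619.5 and 182.4. The defining markers Tyr and Mitf were detected on neither array. In pooled RNA of this kind, fewer cells of a type and less RNA per cell cannot be told apart. The part of these cells in the Wnt differences was not tested.

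Markers of other kinds of cell had opposite directions. Of 10 detected genes of dermal fibroblasts and papilla, 9 (90%) were below 0, against 50.2% of all detected genes. At least 2-fold lower were 3 (30%, against 1.11%), with 0 of them 2-fold lower in the deposited signals, against 0.178%. Dcn was at -2.07 (4.19-fold lower, 1.92-fold deposited). The exception was Mmp2, a matrix metalloproteinase, at 2510 and 4923 (1.04). The signal summed over the other 15 probes was 6587 in the control and 5458 in the group labelled knockout, and with Mmp2 it was 9097 and 10380. Lum, Col1a2, Col3a1, Pdgfra and Pdgfrb were detected on neither. All 4 detected Langerhans cell genes (Cd207, H2-Ab1, H2-Eb1 and Cd74) were above 0, against 4650 of all 9540 detected genes. At least 2-fold higher were 2 of them, against 1.28% of all, and 0 in the deposited signals, against 0.283%. The summed signals of 6 probes were 4494 and 7706. H2-Aa and Ptprc were detected on neither array. The part of these cells and of the sex-linked difference in the Wnt values was not tested. With 1 array per group the sex-linked difference cannot be told apart from the label.

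**Figure D5:**
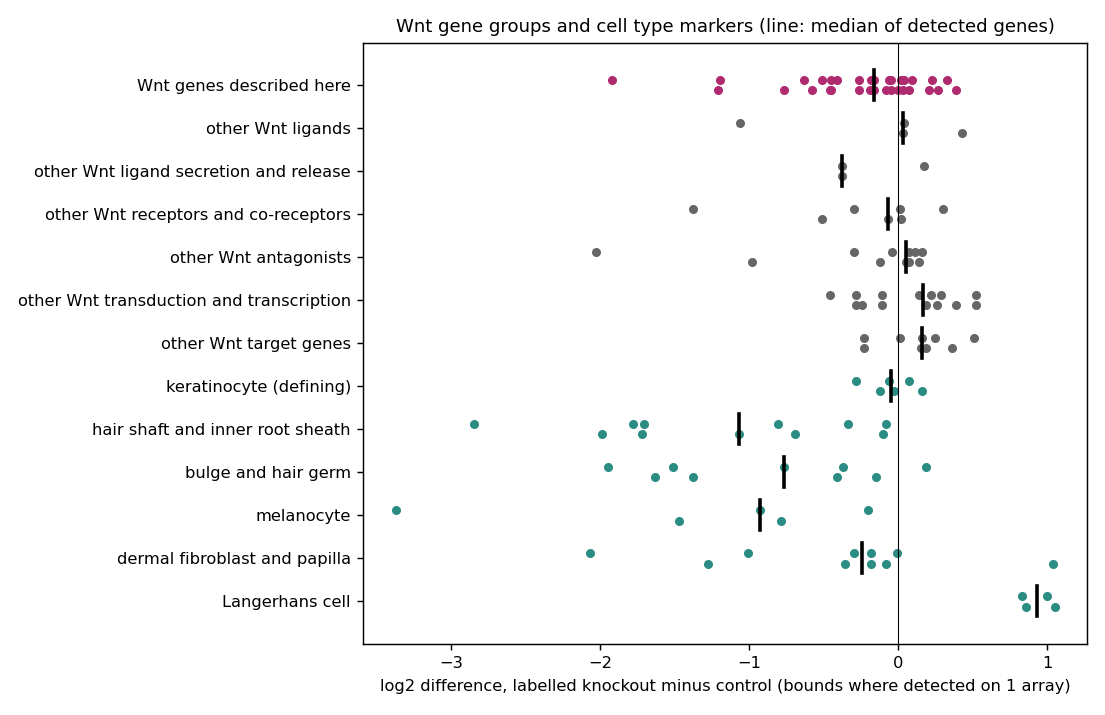
Log2 difference of each detected gene (1 point, bounds where detected on 1 array) in the Wnt genes described here (purple), other Wnt pathway genes by role (grey) and cell type markers (green), with a black line at each median. The Wnt genes have a median of -0.16, markers of hair shafts and inner root sheaths -1.07 and Langerhans cell genes 0.93.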

How the data were processed

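Per the submitters' processing notes, bead intensities were written by GenomeStudio 2011.1. The non-normalized intensities were deposited as linear averages per probe with no background subtracted, the lowest being 116. The deposited normalized intensities, once sorted, match between the arrays to within 0.3, by a method not given in the sources used here, and the series value table is identical to them. Both tables carry deposited detection p-values that are out of step with the intensity rows (Spearman's rho across probes -0.0053 and -0.0073), so within an array they were handed out again in order of intensity, the smallest to the brightest probe.

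Background was then taken off the non-normalized values by normexp in limma 3.58.1 under R 4.3.3, with parameters from the reassigned p-values and 16 added as offset, before log2 and quantile normalization. The code was tested on simulated data. A gene entered the counts with a detection p below 0.05 on 1 or both arrays. Names were updated through the RefSeq table of GRCm38.p6, which named 25376 of 25697 probes. Each group had 1 array, so differences carry no p-value. The precision is limited by the number of arrays.

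The members, roles and lists were chosen with earlier results of these data known. Every member was to be accounted for by role, with a full description for an absolute log2 difference of at least 0.5 and for the member with the highest signal of each role, and other pathway genes were named when at least 2-fold apart or among the 2 largest differences each way. Further pathway and marker genes were named after their values were seen. Alternatives were the background correction, the offset, the normalization, the detection filter and the choice of probe.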

Additional observations from a re-analysis of the deposited data

How the results depend on the processing

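The median over detected Wnt genes stayed below 0 under all 8 alternatives, from -0.17 to -0.07. Under each alternative 0 Wnt genes were 2-fold higher, against 0.283% to 1.37% of all genes counted. The number at least 2-fold lower was 3 in the main setting and 1 (Nkd2) without background correction, with a normexp offset of 50 and in the deposited normalized intensities. It was 2 or 3 under the other alternatives. Of all genes counted, 1.11% were at least 2-fold lower in the main setting, and 0.199%, 0.493% and 0.178% in these 3 settings. The share was 0.778% to 1.06% under the others. The number of other pathway genes at least 2-fold lower moved from 3 to 1 (Shisa2) in the same 3 settings, with detection p under 0.01 and with detection on both arrays. At 1.3-fold the lower count was 11, with 6 without background correction, 7 in the deposited values and 9 to 13 otherwise, and the higher count was 1, with 0 in the first 2 of these. Of 248 single values under the alternatives, 19 moved by more than the SD between probes of a gene (0.24), and 5 values of 4 genes (Edar, Fzd1, Porcn and Wnt5a) had another sign or went to or from 0. Keeping the background shrinks differences of dim genes by its construction. No paired analysis was possible because each group held 1 array, and for the same reason no array could be left out.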
